A study of Homo sapiens with 5 samples.

Results

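The genes examined were 10 interferon-stimulated antiviral effectors: MX1, MX2, RSAD2, CMPK2, IFI6, IFI27, IFI35, IFI44, IFI44L and SAMD9. A gene was credited with every H3K27ac peak whose center lay within 10 kb of one of its GENCODE release 44 transcription start sites on GRCh38. By this rule 6 of the 10 genes had a peak and 4 (MX2, IFI27, IFI44 and IFI44L) had none. Together they held 7 of the 20087 peaks, of which 5 were centered within 1 kb of a start site of a member gene and 2 flanked IFI35.

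H3K27ac, acetylation of histone H3 at lysine 27, was measured by ChIP-seq in HCT116 CMV-osTIR1 RAD21-mAC cells, a human colorectal carcinoma line carrying a plant auxin receptor gene driven by a CMV promoter and a degron-tagged RAD21, which is a cohesin subunit; the labels mention no auxin. All cells were kept in 0.1% DMSO for 6 h. There were 2 libraries from cells then given IFN-β at 1000 units/ml for 1 h. Another 2 came from cells given nothing further, whose labels carry a time of 0 min. The remaining library was 1 input, labelled as mock with a time of 60 min. The labels do not say whether the 2 libraries of a group came from separate cultures, and the table gives group means only, so no spread between libraries and no test between groups could be computed.

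IFN-β binds a receptor of IFNAR1 and IFNAR2 and, through the kinases JAK1 and TYK2, activates ISGF3, a transcription factor complex that includes STAT2 and IRF9. ISGF3 binds the interferon-sensitive response element (ISRE), a tandem GAAA repeat in the promoters of interferon-stimulated genes. The proteins encoded by the genes described here act directly on viruses or on the cell's response to them, and H3K27ac marks active promoters and enhancers.

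The sequences around these repeats are shown first, because such repeats were found both in members with a peak and in members without one. Promoters of 300 bases (250 before to 50 after a start) came from RefSeq on GRCh38.p14, where 9 of the 10 members matched, with 16 starts. MX2 was not matched. The ISRE core was searched as GAAANNGAAA, a longer form as GAAANNGAAACT, the GAS element as TTCNNNGAA and the AP-1 site as TGANTCA, on both strands. A shorter repeat, GAAANGAAA, was added after the data had been seen. Capitals mark the GAAA repeats, on the strand of the gene, and TTTC is their reverse complement. In MX1, SAMD9 and IFI44 a shorter repeat overlaps the core, so that 1 run of capitals covers both.
MX1, chr21:41420559-41420588, plus strand: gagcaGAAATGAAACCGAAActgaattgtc
SAMD9, chr7:93118081-93118145, minus strand: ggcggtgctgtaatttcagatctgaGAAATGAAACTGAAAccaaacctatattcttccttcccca
IFI6, chr1:27672251-27672373, minus strand: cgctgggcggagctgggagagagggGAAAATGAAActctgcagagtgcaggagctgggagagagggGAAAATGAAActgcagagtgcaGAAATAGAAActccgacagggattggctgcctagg
RSAD2/CMPK2, chr2:6865723-6865751, plus strand: ccccgcctcgGAAACGAAAcctggcggga
RSAD2/CMPK2, chr2:6865791-6865819, plus strand: gcgccagcggGAAACGAAAgcgaagcgtt
IFI35, chr17:43006758-43006786, plus strand: ggatttcacgGAAATGAAAgtggaagcaa
RSAD2, downstream start, chr2:6877622-6877651, plus strand: ctgtttcaacTTTCAGTTTCacatgtggaa
IFI27, chr14:94110603-94110675, plus strand: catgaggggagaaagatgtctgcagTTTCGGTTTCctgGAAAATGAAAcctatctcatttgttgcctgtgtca
IFI44, chr1:78649746-78649810, plus strand: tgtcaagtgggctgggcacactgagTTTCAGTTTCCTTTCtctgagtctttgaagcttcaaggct
IFI44L, chr1:78620259-78620318, plus strand: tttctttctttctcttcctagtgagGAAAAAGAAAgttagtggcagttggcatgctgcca

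Of the 9 matched members, 7 held an ISRE core in at least 1 RefSeq promoter, and 3 of those 7 (IFI27, IFI44 and IFI44L) had no peak. Among all 35116 RefSeq promoters, 3.57% held the core, 0.27% the longer form, 7.66% the GAS letters, 7.71% the AP-1 letters and 3.12% the shorter repeat. These shares are per promoter, whereas the 7 of 9 are genes, some of them with several overlapping promoters. IFI6 carried 3 cores, each in the longer form, and IFI27 carried 2 cores on opposite strands. IFI44L carried 2 cores in the same surrounding letters, of which 1 is shown. The promoter of RSAD2 beside the peak held no core but 4 shorter repeats, 2 of which are shown, and these lie in annotated UTR sequence. The map of sequence elements shows these positions along each promoter.

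**Figure D1:**
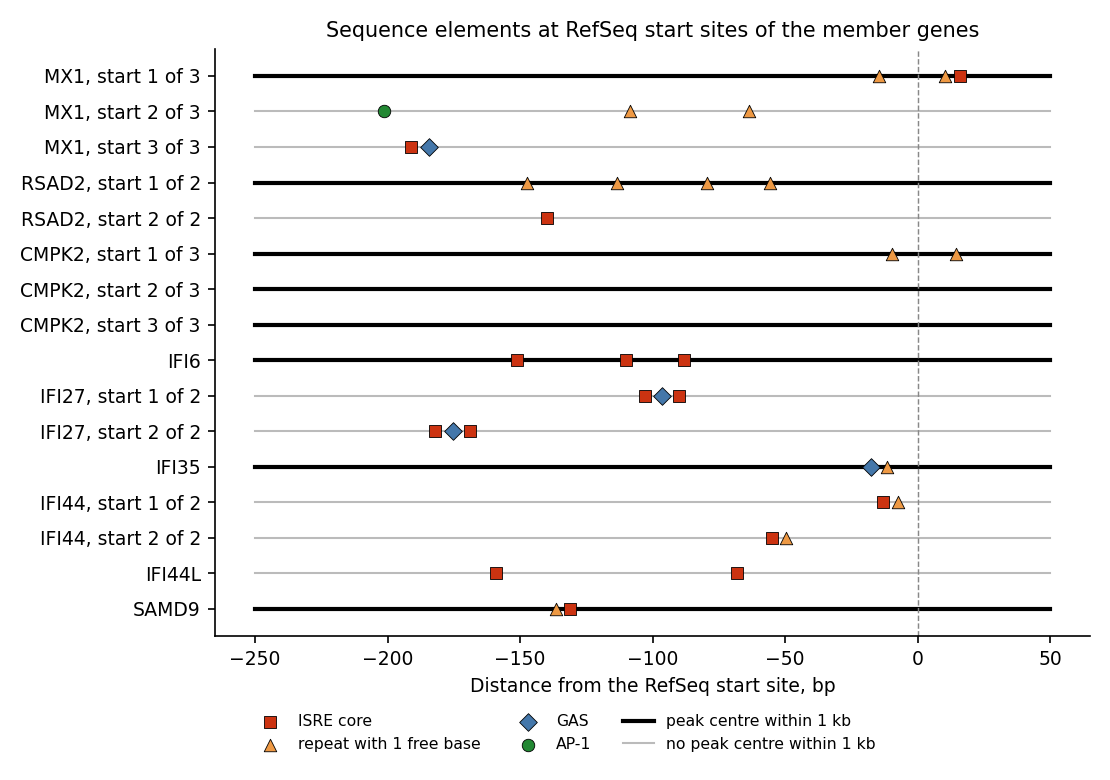
Positions of ISRE cores (squares), shorter GAAA repeats (triangles), GAS letters (diamonds) and AP-1 letters (circle) from 250 bp before to 50 bp after the 16 RefSeq starts of 9 members; the x axis is the distance from the start in bp, and thick lines mark starts with a peak center within 1 kb. The 3 cores of IFI6 lie on a thick line, while the cores of IFI27, IFI44 and IFI44L lie on thin ones.

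At all 5 start-site peaks of the members, mean H3K27ac was higher after IFN-β than in unstimulated cells. The differences ran from 0.43 at RSAD2/CMPK2 to 1.94 at IFI6 (log2, IFN-β minus unstimulated), with a median of 0.78. Over all 20087 peaks the median difference was -0.69, which is a 1.61-fold lower signal after IFN-β, and 5.93% of all peaks had a difference above 0. Relative to that median the 5 peaks were higher by 1.12 to 2.63. A peak is called higher here when its difference is at least 1 above the median of all peaks. All 5 start-site peaks and so all 6 genes with a peak were called. The shares called were 2.51% of all peaks and 1.83% of the 3986 peaks with the same range of mean signal (4.10 to 4.84). Among the 11334 peaks within 1 kb of a protein-coding start site, 138 were called. Of the 7 member peaks, 5 were called, as neither IFI35 flank was. Without the shift by the median, only IFI6 and SAMD9 among them reached a difference of 1. Peaks were called in the libraries of both groups and merged, so a region weak in unstimulated cells could be listed through the IFN-β libraries alone. Members without a peak could not be called, and the members were chosen with earlier results of these data known. The shares of all peaks therefore describe the threshold and do not test the members.

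Levels are given as the log2 of the mean normalized reads per peak, with each of the 7 peaks 1000 bp wide. From the steps between the lowest values of the table, the relative sizes of the libraries were estimated at 1.00 and 1.29 for the unstimulated group and at 1.46 and 1.54 for the IFN-β group, and each level was turned back into an estimated number of reads. Estimated reads in all peaks were 2004306 over both unstimulated libraries and 1623490 over both IFN-β libraries, and the part of this in the shift of the median was not tested. The 95% intervals that follow are from these reads, exact Clopper-Pearson intervals for differences and exact Poisson intervals for levels. They cover counting error only and say nothing of the spread between libraries. The peaks were obtained with a control for input. At the lowest level stood 492 peaks of the unstimulated group and 507 of the IFN-β group. That level was taken as a floor of 1 read per library, so the reads beneath it are not known. Whether input reads were subtracted from the levels is not given in the sources used here, and if so the estimated reads are too few and the intervals do not hold the error of the input. In a bulk signal, a larger share of cells with acetylation and more acetylation per cell cannot be told apart. The labelled cell type was checked against epithelial markers, of which 7 of 10 had a peak within 1 kb of a start site and KRT20, VIL1 and CDX1 had none within 10 kb. Of 10 genes of cells that should be absent, 6 had a peak within 10 kb and 2 within 1 kb, COL1A1 and VIM. Of those 6, CDH5 was called by the rule used for the members (a difference of 0.56, at a peak 3504 bp from its start site).

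MX1 encodes a dynamin-like GTPase that traps incoming viral ribonucleoproteins, influenza virus among them. Its peak (ENSG00000157601; chr21:41420263-41421263) had its center 153 bp downstream of the nearest start site, in a UTR exon of the gene. The mean level was 3.66 (12.6 normalized reads) in unstimulated cells and 4.44 (21.7 normalized reads) after IFN-β. That is a difference of 0.78 (95% counting interval 0.12 to 1.45), or 1.72-fold, from an estimated 29 and 65 reads. Relative to the median of all peaks MX1 was higher by 1.47 (0.81 to 2.14). Its level stood at percentile 16.8 of all peaks in unstimulated cells and at percentile 51.3 after IFN-β, close to the middle of all peaks. Its peak window held the ISRE core in the longer form shown above.

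MX2, the paralog of MX1 whose product restricts HIV-1 at the step of nuclear import, had no peak. The MX1 peak was the closest, with its center 14791 bp from an MX2 start site. On its other side the next peak was that at BACE2. The 2 genes lie next to each other on chromosome 21 in the same orientation, and the MX1 peak was the sole acetylated region listed within 200 kb of the 5′ end of MX1. A gene without a peak was not called as enriched over input in the table, which gives no level there.

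RSAD2 encodes viperin, a radical SAM enzyme that makes a chain-terminating nucleotide from CTP, and CMPK2 encodes a mitochondrial nucleotide kinase that can supply its substrate. They are oppositely oriented neighbors on chromosome 2 and shared 1 peak (ENSG00000134321 and ENSG00000134326; chr2:6865394-6866394), centered 4 bp from a start site of RSAD2 and 13 bp from one of CMPK2, in UTRs of both. The mean level was 4.34 (20.3 normalized reads) in unstimulated cells and 4.77 (27.3 normalized reads) after IFN-β. The difference of 0.43 was the smallest of the start-site peaks, and its interval of -0.10 to 0.99 included 0, from an estimated 46 and 82 reads. Relative to the median of all peaks the difference was 1.12 (0.59 to 1.68), just past the threshold of 1. With a pseudocount of 8 normalized reads it was 0.84, under the threshold. Signal from the promoters of RSAD2 and CMPK2 cannot be told apart in this peak. It was the most GC-rich of the 5, at 72.8%, and held 4 shorter GAAA repeats and no ISRE core. A downstream RefSeq start of RSAD2, whose promoter does hold a core, lay 11883 bp from the nearest peak center. No level is therefore given at that start, and the values for RSAD2 are those of its upstream start beside CMPK2.

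IFI6 encodes a small membrane protein of the endoplasmic reticulum that restricts flaviviruses and limits cell death. Its peak (ENSG00000126709; chr1:27671921-27672921) was centered 209 bp upstream of the start site, within an intron of an overlapping lncRNA gene (ENSG00000225886). The mean level was 3.36 (10.3 normalized reads) in unstimulated cells and 5.30 (39.4 normalized reads) after IFN-β, a 3.84-fold difference. The difference of 1.94 (1.31 to 2.68), from an estimated 23 and 118 reads, stood at rank 12 from the top among all peaks. IFI6 was therefore the lowest of the 5 start-site peaks without IFN-β and the highest with it, at percentiles 11.3 and 77.6 of all levels. Relative to the median the difference was 2.63 (2.00 to 3.37).

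IFI27 encodes a small protein of the same family as IFI6, found at mitochondria and the nuclear envelope. It had no peak. The closest one (chr14:94080627-94081627) lay 23709 bp away, at the start of its paralog IFI27L1, where the level was 5.49 in unstimulated cells and 4.92 after IFN-β. That difference of -0.57 was 0.12 above the median of all peaks and did not reach the threshold.

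IFI35 encodes a leucine zipper protein that forms a complex with NMI. Its start-site peak (ENSG00000068079; chr17:43006507-43007507) was centered 199 bp downstream of a start site, in an intron of the gene, and also lay within 10 kb of start sites of RPL27, which encodes a ribosomal protein, and of VAT1, which encodes a vesicle membrane protein. The mean level was 4.47 (22.2 normalized reads) in unstimulated cells and 5.13 (35.0 normalized reads) after IFN-β. The difference was 0.66 (0.15 to 1.16), or 1.58-fold, from an estimated 51 and 105 reads, and 1.35 (0.84 to 1.85) relative to the median. The peak held no ISRE core, 1 shorter repeat and 1 GAS match, which overlap each other.

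The 2 other peaks of IFI35 were those nearest the limit of 10 kb and went the other way. The peak at RPL27 (chr17:42998468-42999468), centered 7772 bp from the closest IFI35 start site, had a level of 5.53 in unstimulated cells and 4.95 after IFN-β, a difference of -0.58 (-1.0 to -0.17). The peak within VAT1 (chr17:43021188-43022188), also within 10 kb of a start site of RND2, was centered 8510 bp away and had levels of 4.35 and 4.05, a difference of -0.30 (-0.91 to 0.30). Relative to the median these differences were 0.11 and 0.39, and neither was called. Since the RPL27 peak was the strongest of the 3, the difference credited to IFI35 relative to the median would be 0.11 from its strongest peak and 0.62 from the mean of its peaks. Just outside 10 kb, the closest peak centers were another VAT1 peak at 11309 bp from an IFI35 start site (3.15 and 2.79), a peak at 12359 bp from IFI6 (4.38 in both groups) and the MX1 peak as seen from MX2.

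IFI44 and IFI44L encode paralogous cytoplasmic proteins and lie next to each other on chromosome 1. Neither had a peak, and the closest centers lay 530581 bp from IFI44 and 513804 bp from IFI44L. Both nevertheless held ISRE cores in their RefSeq promoters.

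SAMD9 encodes a large cytoplasmic protein that blocks poxvirus replication. Its peak (ENSG00000205413; chr7:93117655-93118655) was centered 132 bp upstream of the start site, outside annotated genes. The mean level was 3.69 (12.9 normalized reads) in unstimulated cells and 4.86 (29.0 normalized reads) after IFN-β. The difference of 1.17 (0.53 to 1.79), or 2.25-fold, from an estimated 30 and 87 reads, was the second of the members after IFI6, and it was 1.86 (1.22 to 2.48) relative to the median. This peak was the least GC-rich, at 37.1%, and its ISRE core lay near its center. SAMD9L, the paralog beside it, had no peak.

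**Figure D2:**
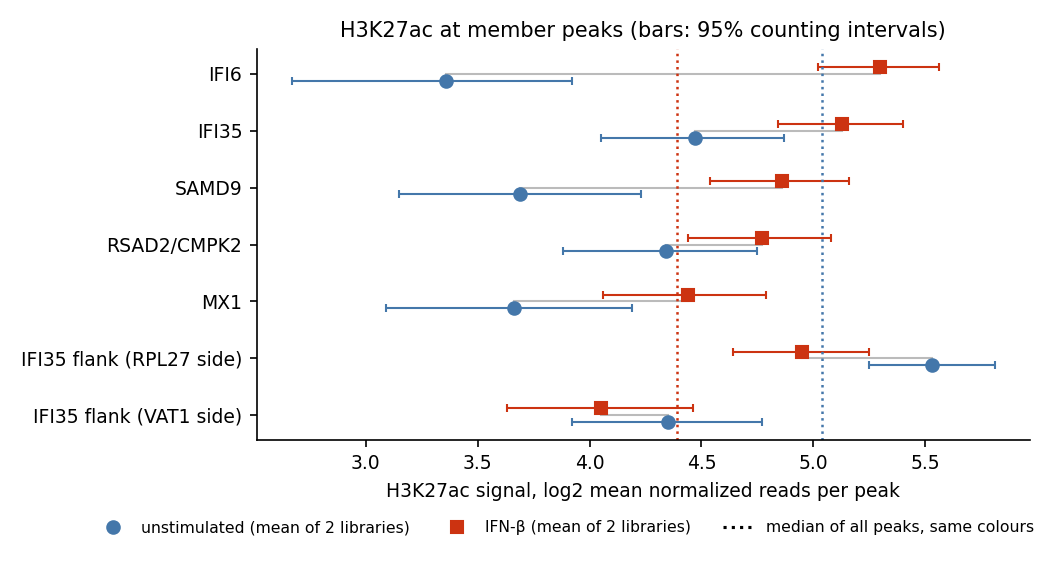
H3K27ac at the 7 member peaks, with the log2 mean normalized reads per peak on the x axis, circles for unstimulated cells and squares for IFN-β (means of 2 libraries each), bars for 95% counting intervals and dotted lines for the medians of all peaks. The squares lie to the right of the circles at the 5 start-site peaks, from MX1 (3.66 and 4.44) to IFI6 (3.36 and 5.30), and to the left at both IFI35 flanks.

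Ordered by level in unstimulated cells, IFI35 (4.47) and RSAD2/CMPK2 (4.34) came first, followed by SAMD9 (3.69), MX1 (3.66) and IFI6 (3.36). The counting intervals of neighbors in this order overlapped, while those of IFI35 (4.05 to 4.87) and IFI6 (2.67 to 3.92) did not. After IFN-β the order was IFI6 (5.30), IFI35 (5.13), SAMD9 (4.86), RSAD2/CMPK2 (4.77) and MX1 (4.44). Again the intervals of neighbors overlapped. The interval of MX1 (4.06 to 4.79) did not overlap those of IFI6 (5.02 to 5.56) and IFI35 (4.84 to 5.40). Every start-site peak was below the median of all peaks (5.04) in unstimulated cells and above the median (4.39) after IFN-β, as the plot of levels shows. The interval of MX1 after IFN-β included 4.39, so its place above that median is not resolved. The peaks spanned 1.11 between the lowest and highest level without IFN-β and 0.86 with it.

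**Figure D3:**
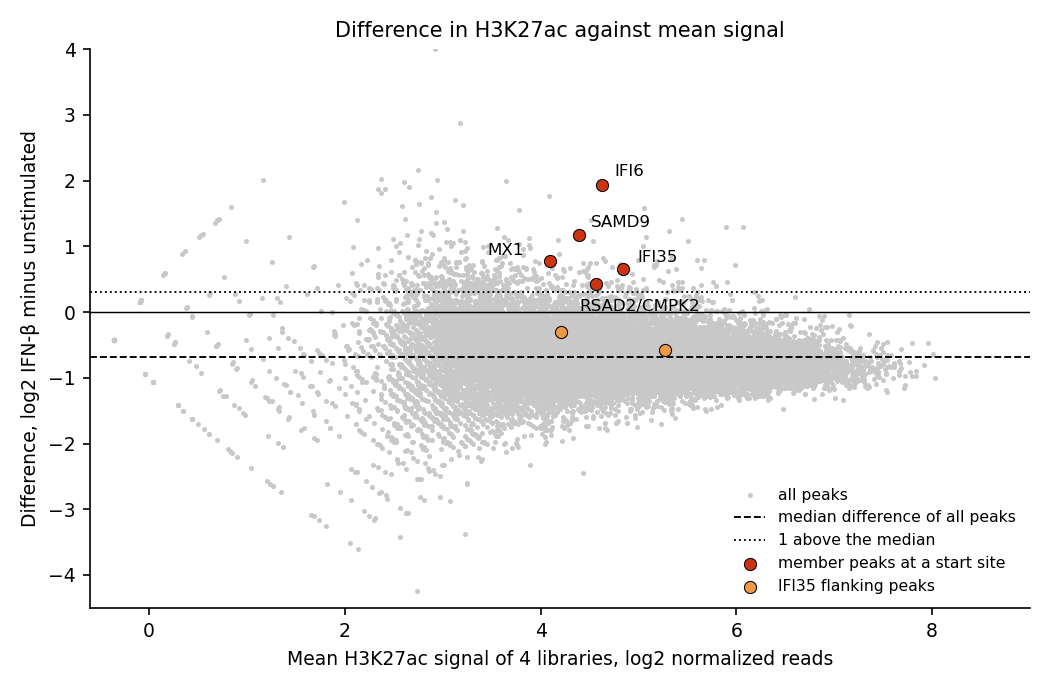
Difference between IFN-β and unstimulated cells (log2, y axis) against the mean signal of the 4 H3K27ac libraries (log2 normalized reads, x axis) for all peaks in gray, of which 4 lie outside the axes, with the member peaks at a start site and the IFI35 flanks in color. The 5 start-site peaks lie above the dotted line, which is 1 above the median difference of -0.69, and both flanks lie below it.

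The peaks around the members are given for comparison. Within 200 kb of the 5′ ends of the member genes, 27 other peaks were listed, of which 0 were called (2.51% of all peaks) and 0 had a difference above 0 (5.93% of all peaks). With so few peaks, counts of 0 are near those shares and single out nothing about these neighbors. Their differences ran from -0.92 to 0.00, with a median of -0.56. Of these, 14 lay around IFI6 and 7 around IFI35, whereas MX1, IFI44 and IFI44L had no other peak in this range. The highest of the 27 was the closest neighbor of the IFI6 peak, 12.6 kb away between genes, where the level was 4.38 in both groups. The plot of peaks around each gene sets these beside the member peaks.

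**Figure D4:**
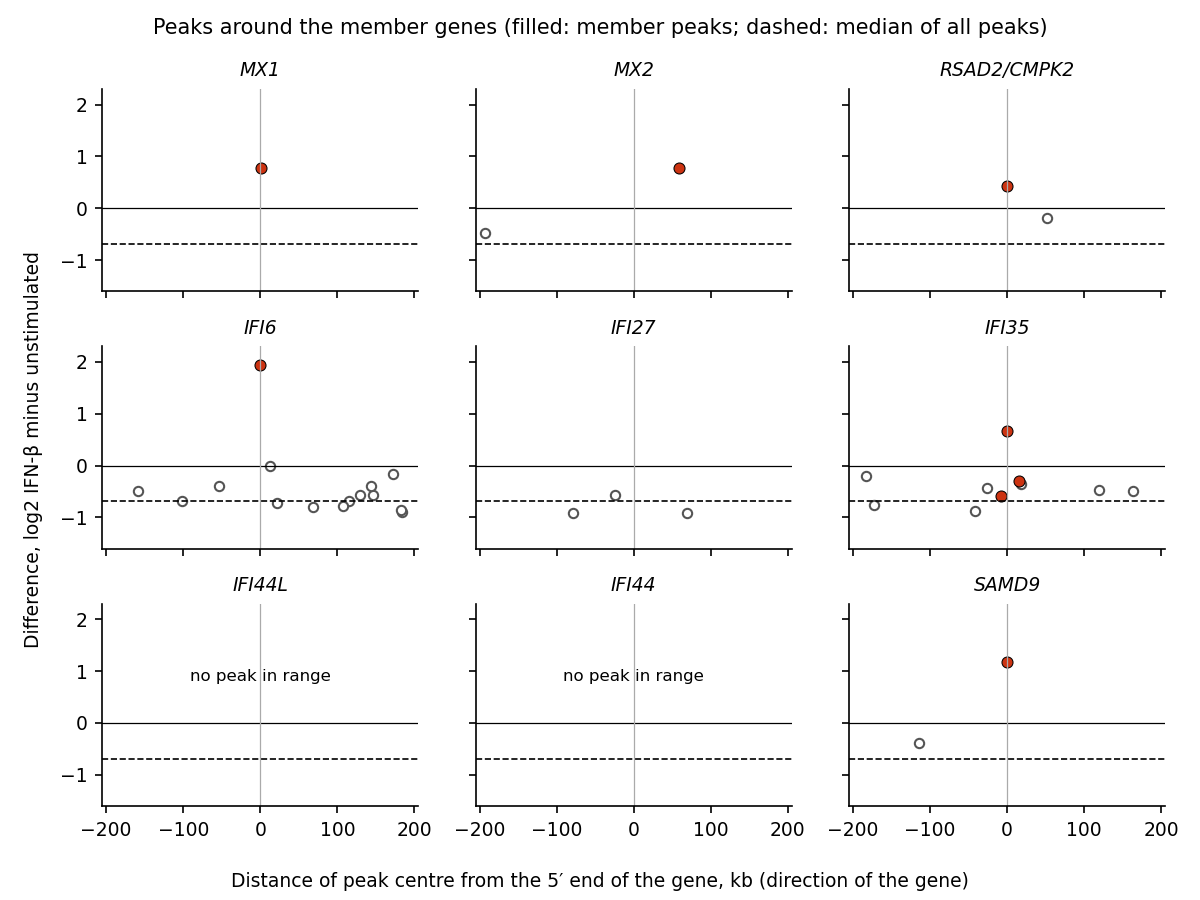
Differences (log2, IFN-β minus unstimulated) of all peaks within 200 kb of the 5′ ends of the member genes, against the distance in kb in the direction of the gene, with member peaks filled and other peaks open; the MX1 peak appears again, filled, in the panel of MX2. The open points lie at or below 0, down to -0.92, while the filled points at the start sites lie between 0.43 and 1.94.

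The next peaks on either side of each member peak, at any distance, numbered 10. They lay 2.8 to 308.7 kb away, with a median difference of -0.40 and a range of -1.24, at an intergenic peak toward RIPK4 from MX1, to 0.40. The latter was the only one called, an intergenic peak 308.7 kb on the lower-coordinate side of RSAD2 with levels of 2.81 and 3.21. On the other side of that gene the RNF144A peak differed by -0.18. The peaks at BACE2, FAM76A, PTGES3L-AARSD1, VAT1, VPS50 and CDK6 had differences of -0.47, -0.40, -0.43, -0.36, -0.39 and -1.09.

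An ISRE core lay within 500 bp of the peak center at 3 of the 5 start-site peaks (MX1, IFI6 and SAMD9) and at neither IFI35 flank. It lay in 11.6% of all peaks, in 8.70% of those within 1 kb of a protein-coding start site and in 23.2% of the 505 called peaks. The 3 peaks with a core had the 3 highest differences of the 5 (1.94, 1.17 and 0.78). The order of MX1 (0.12 to 1.45) and IFI35, without a core (0.66, 0.15 to 1.16), is not resolved, since their counting intervals overlap. A link between the core and the difference was not tested. The longer form was found at 2 of the 5 (MX1 and IFI6) and in 0.80% of all peaks. The GAS letters were found at 1 of the 5 (IFI35), against 21.8% of all peaks, and the AP-1 letters at 0 of the 5, against 33.4%. The shorter repeat lay in 4 of the 5 and in 11.2% of all peaks, and either repeat in all 5, against 20.4%. Among peaks within 1 kb of a protein-coding start site, 17.8% held the GAS letters and 15% the AP-1 letters. In the same peaks the share was 0.7% for the longer form, 8% for the shorter repeat and 15.3% for either repeat. With 5 peaks, the GAS and AP-1 counts are near the start-site shares. These matches describe letters and not binding.

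The 6 receptor, kinase and ISGF3 genes examined all had a start-site peak, and 2 of 6 were called (2.51% of all peaks). The called genes were IRF9 (5.11 and 6.40, a difference of 1.29) and STAT2 (5.66 and 6.12, a difference of 0.46). The receptor and kinase genes IFNAR2, IFNAR1, JAK1 and TYK2 had differences of -0.67, -0.66, -0.47 and -0.41. The STAT2 and IRF9 peaks were stronger than any start-site peak of the effectors in both groups.

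Of 37 other interferon-stimulated genes, 31 had a peak and 16 were called (2.51% of all peaks). Their median difference was 0.32, with median levels of 4.96 and 5.64. The medians over the 6 effector genes were a difference of 0.72 and levels of 4.01 and 4.81. The highest differences of the other list were those of OASL (1.99), TRIM21 (1.76) and IFIT1 (1.59), and the lowest those of UBE2L6 (-1.11), DHX58 (-0.93) and ISG15 (-0.53). The peak credited to DHX58 was centered 8388 bp from its start site. The difference between the 2 lists was not tested.

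Paralogs, partners and namesakes of the effectors were counted in the same way. Of 9 such genes, 6 had a peak and 0 were called (2.51% of all peaks), with a median difference of -0.70. NMI, the partner of IFI35, had a difference of -0.65, and the dynamin genes DNM1, DNM2 and DNM1L, whose products share a GTPase fold with the MX proteins, had differences of -0.56, -0.91 and -1.04. IFI30, which encodes a lysosomal thiol reductase, had a difference of -0.74. SAMD9L, IFI16 and IFI27L2 had no peak. All 10 housekeeping genes had a peak and 0 were called, with differences from -1.31 at HPRT1 and GUSB to -0.57 at ACTB and a median of -0.91. PPIA (-0.75) and GAPDH (-0.83) followed ACTB, and RPLP0 (-1.18) followed the 2 lowest. With so few genes, the counts of 0 in both lists are near the 2.51% of all peaks and single out nothing.

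**Figure D5:**
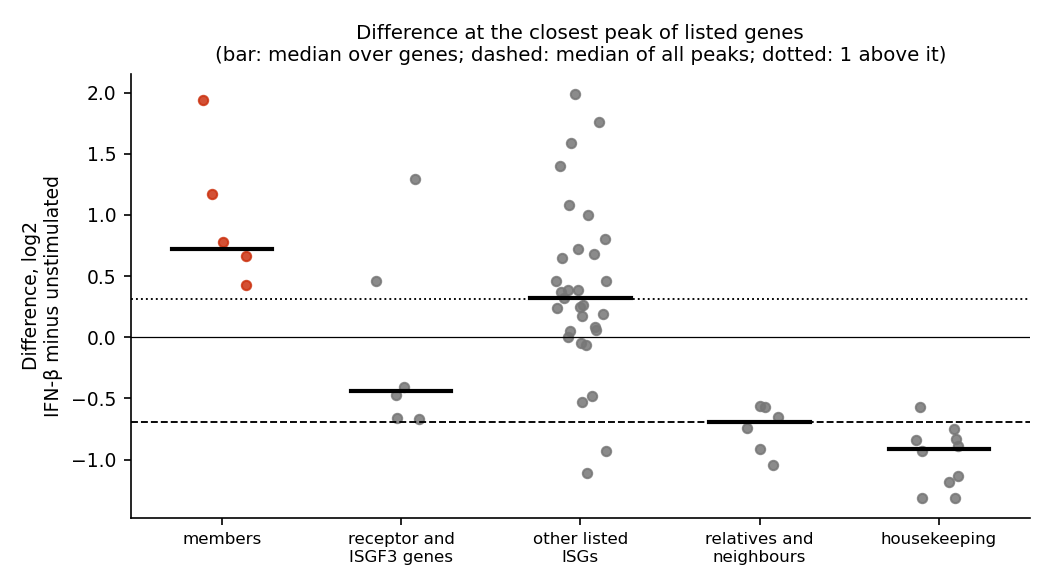
Differences (log2, IFN-β minus unstimulated) at the closest peak of the genes of 5 lists, with 1 point per peak, bars for medians over genes, a dashed line for the median of all peaks and a dotted line 1 above it. The 5 effector peaks lie above the dotted line, as do 2 of 6 receptor and ISGF3 genes and 16 of 31 other interferon-stimulated genes, while no relative or housekeeping gene does.

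The genes outside these lists whose pair of levels was most like the effectors' median pair (3.69 and 4.86 over start-site peaks) were sought among 12953 protein-coding genes with a peak, by Euclidean distance in log2 units. The closest were SP140 (distance 0.202, levels of 3.66 and 5.06), by way of a peak it shares with SP110 and 5628 bp from its own start site, and CMTR1 (distance 0.256, levels of 3.91 and 4.99), which encodes an mRNA cap methyltransferase. Next came PLEKHA4 (0.444), EGR2 (0.540) and ANXA2R (0.589), with differences of 0.67, 0.41 and 0.45. Over 2 levels a likeness of this kind is a description, and many pairs of values are close to each other.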

How the data were processed

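The authors sequenced single-end H3K27ac ChIP-seq libraries, 2 from IFN-β-treated and 2 from unstimulated cells, and 1 input library. The submitters' processing notes name bcl2fastq 2.17, fastp 0.19.3, Bowtie2, SAMtools, MACS2, DiffBind and DESeq2 with GRCh38. Peaks were called against input and merged into 1 table by the authors. Its concentration columns are deposited on the log2 scale, as the mean reads of each group in a peak after library size normalization by DiffBind, possibly net of input reads. Its fold-change, p-value and FDR columns hold the authors' own DESeq2 comparison and were not used.

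Differences were taken as IFN-β minus unstimulated. Gene starts came from GENCODE release 44. All 39 sequence names of the table were found in the reference, with 1 peak past a sequence end. Depth was recovered from whole-read steps of values under 1.2, within 0.005 (log2), which 100% of them met. The library sizes were chosen to meet as many of these values as possible, so that share is no separate check of the sizes. The values under 1.2 numbered 562 in the unstimulated group (9 distinct) and 674 in the IFN-β group (16 distinct). Most of them, 492 and 507, were the lowest level itself, so the sizes rest on few other values. 1 read per library set the lowest level (-0.17 unstimulated, -0.59 IFN-β). Python 3.11.15, numpy 2.4.6, pandas 2.3.3, scipy 1.17.1, pysam 0.24.0, samtools 1.23.1 and matplotlib 3.10.9 were used.

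Named are all members and their peaks, genes sharing a member peak, the next peak on either side, the 3 highest and 3 lowest differences of each gene list other than cell type markers and the 5 genes of most similar levels. For 1 peak per gene, the closest center was taken. The members and the gene lists were chosen with earlier results of these data known. Alternatives changed the distance, the start sites, the peak per gene, the centring, the threshold, a filter on low signal, a pseudocount and the motif. A gene of the signaling list is not reported here.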

Additional observations from a re-analysis of the deposited data

How the results depend on the processing

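The members' median difference relative to all peaks (1.41) became 0.72 without centring on the median of all peaks, since that median is itself -0.69. It lay between 1.04 and 1.47 when the strongest peak or the mean of a gene's peaks was taken, when centring was done on start-site peaks or within groups of like signal or GC content, and with a pseudocount of 8, under which the shared RSAD2/CMPK2 peak (0.84) fell below the threshold and MX1 (1.04) and IFI35 (1.03) were just past it. The number of member genes called (6) was 2 for a difference of at least 1 without centring, against 0.378% of all peaks. It was 0 with a filter at 32 mean normalized reads, because none of the start-site peaks reaches that signal. Of the 8676 peaks that passed this filter, 0.507% were called. The number of other interferon-stimulated genes called (16) was 27 at a threshold of 0.5 above the median, which 11.1% of all peaks passed, and 6 for a difference of at least 1 without centring (0.378% of all peaks). The number of start-site peaks with an ISRE core (3) was 5 when either GAAA repeat was counted, an alternative chosen after seeing the data. Member peaks numbered 5 within 5 kb or 1 kb and 9 within 20 kb, where MX2 gained the MX1 peak. Of 42 values for single genes, 33 moved by less than 0.51 and 0 changed sign.

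No paired analysis was possible because the table holds group means and no value per library. Leaving out each library was not run for the same reason. With 23 to 51 estimated reads behind each start-site peak in unstimulated cells, the counting error alone leaves differences of about 1 at a single gene imprecise, and the spread between libraries is unknown.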
